A study of Mus musculus with 6 samples.

Results

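The cytochrome P450 genes of the array were taken as all probes whose target name is CYP followed by a family number, a subfamily letter and a member number. This gave 122 probes for 80 genes, among 45281 probes for 28711 gene names in all. Cyp51, the sterol demethylase, has no subfamily letter in its name and is not a member. The RNA came from cancer-associated fibroblasts, the stromal fibroblasts around a carcinoma, kept as a short-term explant culture of a pancreatic tumour of a KPC-Brca1 mouse. Decitabine (5-aza-dC, here DAC), a cytidine analogue that traps DNA methyltransferases on DNA, was given at 2 micromolar for 48 hours to 3 plates, and 3 plates stayed untreated. Both groups share the explant and its genotype, and the alleles behind the strain name, the age of the mouse and the driver of its Cre were not stated by the labels. The labels describe 1 explant culture with replicate plates and name no separate animals, so a p-value here reflects the spread between these samples alone.

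P450 enzymes are haem proteins that insert an oxygen atom from molecular oxygen into their substrates. Most sit in the endoplasmic reticulum and take electrons from the reductase Por, with cytochrome b5 as a helper, and the mitochondrial members take them through ferredoxin reductase and ferredoxin. Families 1 to 3 act mainly on drugs and foreign compounds and are best known from the liver, family 4 on fatty acids and eicosanoids, and the higher families make or break down steroids, bile acids, oxysterols and vitamins A and D.

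Few P450 genes were measurable in these fibroblasts. Counting a gene as detected in a group where all 3 arrays gave 1 of its probes a detection p below 0.01, 10 of the 80 genes were detected with DAC and 9 in untreated plates. All 9 were among the 10, and the added gene was Cyp2c55. On a single array, 10 P450 genes were above detection on each DAC array and 10 to 11 on the untreated arrays. No probe of 67 genes (83.75%) was detected on any array, against 56.4% of the other 28631 gene names. The 105 P450 probes detected on no array had raw intensities of 26.5 to 54.9, with a median of 35.6, close to the median of 36.4 over all undetected probes. For these genes the arrays give only an upper bound, not evidence that the transcript was missing.

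The undetected genes included whole subfamilies. None of the 6 genes of steroid hormone synthesis (Cyp11a1, Cyp11b1, Cyp11b2, Cyp17a1, Cyp19a1 and Cyp21a1) and none of the 6 Cyp3a genes, the main drug oxidases of the liver, was detected on any array. The same held for the 6 Cyp2j genes, the 4 Cyp4a genes, the 10 genes of the Cyp2a, Cyp2b, Cyp2f and Cyp2g subfamilies, and Cyp1a1 and Cyp1a2. Cyp7a1, the first enzyme of classical bile acid synthesis, and Cyp8b1 were at background as well. The clusters in which the detected genes lie were otherwise below detection. Of the 12 neighbouring Cyp2c genes on the array, Cyp2c55 was detected on DAC arrays and the other 11 on none. Of 11 neighbours in the Cyp2a-Cyp2s cluster only Cyp2s1 was detected, and of 7 Cyp2d neighbours only Cyp2d22. In the Cyp4f cluster, Cyp4f13 and Cyp4f16 were detected among 5 members.

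**Figure D1:**
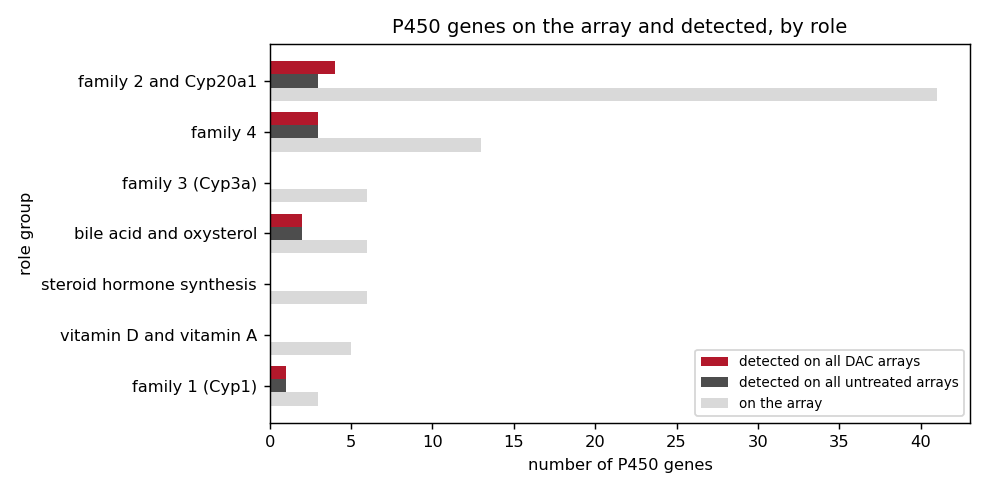
Number of P450 genes (x axis) by role group (y axis). For each group the upper bar counts genes detected on all 3 DAC arrays, the middle bar those detected on all 3 untreated arrays, and the lower bar the genes on the array. The DAC and untreated bars differ only in the group of family 2 (without Cyp2r1) and Cyp20a1, which holds 41 genes, with 4 detected with DAC and 3 untreated.

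The starts of 3 of the measurable genes are shown because the drug acts on methylation of CpG dinucleotides and these genes, chosen after their values were seen, differ in how many they have. They run from 250 bases before to 50 bases after the gene's start and are RefSeq sequences of GRCm38.p6. Capitals mark each CG. Cyp2c55 is at chr19:39006769-39007068 (plus strand), Cyp2s1 at chr7:25816476-25816775 (minus strand) and Cyp20a1 at chr1:60343050-60343349 (plus strand).
Cyp2c55: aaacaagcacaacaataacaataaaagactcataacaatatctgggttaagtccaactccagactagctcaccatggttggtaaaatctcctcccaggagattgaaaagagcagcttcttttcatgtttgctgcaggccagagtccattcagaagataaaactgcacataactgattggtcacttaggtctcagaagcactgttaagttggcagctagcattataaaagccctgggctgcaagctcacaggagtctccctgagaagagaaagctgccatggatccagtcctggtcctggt
Cyp2s1: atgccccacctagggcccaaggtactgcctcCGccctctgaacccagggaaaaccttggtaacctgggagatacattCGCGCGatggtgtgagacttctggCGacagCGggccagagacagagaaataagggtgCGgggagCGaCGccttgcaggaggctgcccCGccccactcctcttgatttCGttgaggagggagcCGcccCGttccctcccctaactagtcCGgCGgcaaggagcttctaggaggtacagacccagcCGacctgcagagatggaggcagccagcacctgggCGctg
Cyp20a1: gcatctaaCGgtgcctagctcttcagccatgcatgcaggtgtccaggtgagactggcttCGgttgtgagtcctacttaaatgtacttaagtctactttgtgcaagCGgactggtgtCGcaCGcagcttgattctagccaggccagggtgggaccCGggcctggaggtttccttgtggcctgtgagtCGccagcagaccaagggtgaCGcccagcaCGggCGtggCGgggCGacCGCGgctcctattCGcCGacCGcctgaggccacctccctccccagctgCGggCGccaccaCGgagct

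The Cyp2c55 window holds 0 CG dinucleotides, the Cyp2s1 window 17 and the Cyp20a1 window 20. Among all 32851 RefSeq windows of this length the median was 7, and 5.43% held none. Of the 80 P450 genes, 59 had a window. In the counts per gene that follow, a gene with several windows was read from the window with the most CG. The 8 of them that passed the detection filter had a median of 13 CG (0 to 20), and the 51 that did not had a median of 2 (0 to 31). Over all genes on the array with a window, P450 genes included, the median was 22 CG in 7867 tested genes and 6 in 7977 genes that were not tested. Among tested genes with a window, 0.305% held no CG, and Cyp2c55 was 1 of these 24. The counts describe the sequence, and methylation was not measured.

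Between groups, intensities were compared on a log2 scale after background correction, addition of an offset of 16 and quantile normalization. A gene was tested where a probe was detected on at least 3 arrays, represented by its brightest such probe, and called where limma gave a Benjamini-Hochberg adjusted p below 0.05 over the 11518 genes tested. Of the 80 P450 genes, 10 passed the filter. Cyp2c55, Cyp20a1 and Cyp4v3 rose with DAC, and Cyp2s1, Cyp7b1 and Cyp2d22 fell. Over all genes tested, 29.5% were called, 14.8% higher and 14.6% lower. Since Cyp2c55 passed the filter through its DAC arrays alone, it had to differ, and the 6 calls among 10 genes are not a measure of how often P450 genes respond. Without between-array normalization the median change of all genes was −0.11, and the share of calls that were higher was 26.5%, against 50.3% with it. Cyp2c55 was then the 1 P450 gene called higher and the same 3 were called lower. With scaling to the 75th percentile, 63.3% of all called genes were higher, and 3 P450 genes were called higher and 2 lower.

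**Figure D2:**
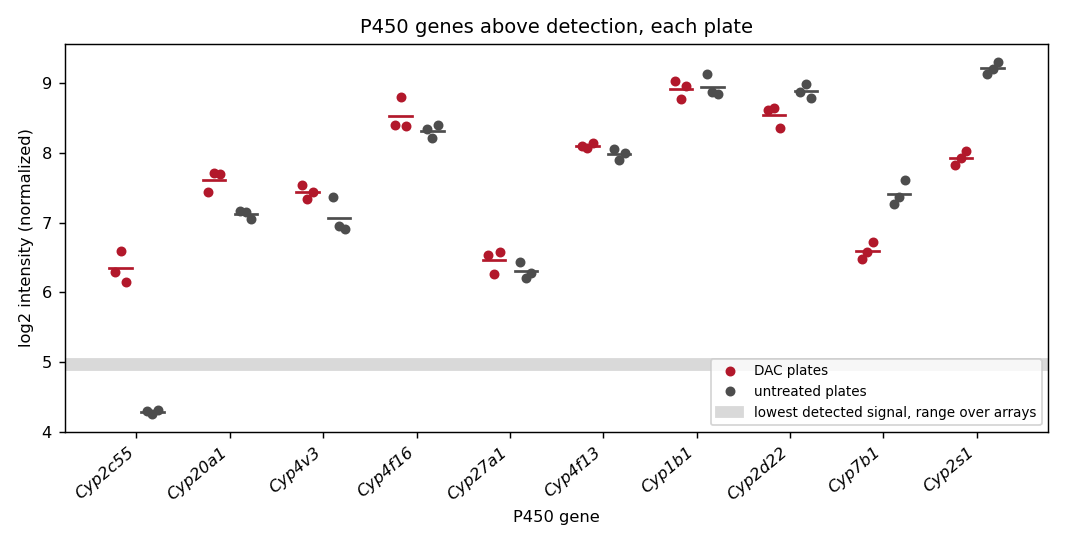
Normalized log2 intensity (y axis) of the 10 tested P450 genes (x axis), with a point per plate and a line at each group's mean, DAC left and untreated right of each gene. The grey band is the lowest detected signal, from 4.88 to 5.05 over the 6 arrays. The untreated plates of Cyp2c55 lie below it at 4.25 to 4.32 and the DAC plates above it at 6.15 to 6.60. Intensities of different genes come from different probes and are not comparable in level.

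Among the family 1 to 3 enzymes, Cyp2c55 and Cyp2s1 moved furthest and in opposite directions. Cyp2c55, a Cyp2c enzyme that hydroxylates arachidonic acid, had raw intensities of 90.1, 116.0 and 89.2 on the DAC arrays, against 38.2, 34.2 and 36.8 on the untreated arrays. On the normalized log2 scale these were 6.30, 6.60 and 6.15 with DAC and 4.31, 4.25 and 4.32 in untreated plates. Every DAC plate was above detection and every untreated plate at background, with detection p-values of 0.44 to 0.73. The gene was at least 2.66-fold higher with DAC, where the bound sets the DAC mean against the lowest detected signal of each untreated array. Its fitted log2 change of 2.06 (SE 0.12), taken against a probe at background, is no bound. The adjusted p of the fit was 7.45e-09 (limma), which is no independent support, since the DAC arrays alone brought the gene through the filter. An offset of 50 lowered the log2 change to 1.11 and leaving out the background correction to 1.20, since both shrink the changes of dim probes. Leaving out a DAC array ended the test of Cyp2c55, because 2 arrays above detection do not meet the filter. With the filter at 2 arrays, chosen after seeing the data, the change without DAC replicate 1, 2 or 3 was 2.11, 1.94 and 2.17. The rise of 1 Cyp2c gene stood beside 22 probes of the 12 other Cyp2c genes on the array, none detected, with raw intensities of 28.0 to 49.6 on DAC arrays and 27.9 to 46.8 on untreated arrays. Detection in 1 group alone was rare, with 0.219% of all gene names detected only with DAC and 0.132% only without it, and no P450 gene was of the second kind.

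Cyp2s1, an enzyme of epithelia and other tissues outside the liver that the aryl hydrocarbon receptor induces, had log2 intensities of 7.83, 7.93 and 8.03 with DAC and 9.13, 9.20 and 9.31 in untreated plates. All DAC plates lay below all untreated plates. The gene was 2.44-fold lower with DAC (log2 change −1.29, 95% interval −1.50 to −1.07, adjusted p = 2.65e-07, limma), and 1.49% of tested genes changed more in size. In bulk RNA, fewer cells that express a gene and less RNA per cell cannot be told apart. Of 13 epithelial and acinar markers on the array, 5 were tested and 8, among them Epcam and Cdh1, were detected on no array. Their summed normalized intensity was 1443 to 1649 on DAC arrays and 1514 to 1714 on untreated arrays, with Krt19 2.30-fold lower and Krt7 1.72-fold higher with DAC. Their part in the change of Cyp2s1 was not tested.

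Cyp2d22, of the Cyp2d subfamily of drug oxidases, had log2 intensities of 8.62, 8.65 and 8.36 with DAC and 8.87, 8.99 and 8.79 in untreated plates. The groups did not overlap, and the gene was 1.27-fold lower with DAC (adjusted p = 0.0281). This call was lost without DAC replicate 3 (adjusted p = 0.139), without untreated replicate 1 (0.0553) or 2 (0.112), with 75th percentile scaling (0.0541) and without the detection filter (0.0713). The lowest adjusted p over its 17 alternatives was 0.00459. Cyp1b1, which oxidizes oestrogens and polycyclic hydrocarbons and is induced through the aryl hydrocarbon receptor, had log2 intensities of 9.04, 8.77 and 8.96 with DAC and 9.13, 8.87 and 8.84 in untreated plates. The plates overlapped, and the difference of −0.02 had a 95% interval of −0.26 to 0.22. Cyp20a1, an orphan enzyme with no settled substrate, was at 7.45, 7.72 and 7.69 with DAC and 7.17, 7.15 and 7.05 in untreated plates. It was 1.41-fold higher in DAC plates, which all lay above the untreated ones (adjusted p = 0.00254). The log2 change was 0.49, and without between-array normalization 0.32 (adjusted p = 0.0589, beside 0.00185 to 0.0589 over all 17 settings), or 0.43 above the median change of all genes under that setting.

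Among enzymes of bile acids and oxysterols, Cyp7b1 fell and Cyp27a1 gave no call. Cyp7b1, the oxysterol hydroxylase of the alternative bile acid pathway, had log2 intensities of 6.48, 6.59 and 6.72 with DAC and 7.27, 7.38 and 7.61 in untreated plates. All DAC plates were below all untreated plates, at 1.77-fold lower (log2 change −0.82, 95% interval −1.06 to −0.58, adjusted p = 6.66e-05, limma). Its change ranged from −0.99 to −0.64 over 17 alternatives, each with the call kept. Cyp27a1, the mitochondrial sterol side-chain hydroxylase, was at 6.53, 6.27 and 6.57 with DAC and 6.43, 6.21 and 6.28 in untreated plates, a difference of 0.15 with a 95% interval of −0.09 to 0.39. Its 3 detected probes gave log2 changes of 0.15, 0.00 and −0.21, none called.

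Of the fatty acid hydroxylases of family 4, Cyp4v3 was called and the Cyp4f genes were not. Cyp4v3, the mouse counterpart of the human gene CYP4V2 that is mutated in a crystalline retinal dystrophy, had log2 intensities of 7.54, 7.33 and 7.44 with DAC and 7.37, 6.95 and 6.90 in untreated plates. One untreated plate, replicate 1, lay within the range of the DAC plates. The gene was 1.29-fold higher with DAC (log2 change 0.36, adjusted p = 0.0403), and the call was lost in 6 of 17 alternatives. These were the fits without DAC replicate 1 (adjusted p = 0.135) or 3 (0.0906), without untreated replicate 2 (0.139) or 3 (0.154), without between-array normalization (0.263) and without the detection filter (0.165), against 0.00424 at the lowest. Cyp4f16 and Cyp4f13 belong to a subfamily that hydroxylates leukotrienes and other fatty acids. Cyp4f16 was at 8.40, 8.80 and 8.39 with DAC and 8.34, 8.22 and 8.40 in untreated plates, with a 95% interval of −0.04 to 0.47 for the difference. Its 3 detected probes gave log2 changes of 0.21, 0.25 and −0.16, none called and not of 1 sign. Cyp4f13 was at 8.10, 8.07 and 8.14 with DAC and 8.05, 7.91 and 8.00 in untreated plates. Its plates did not overlap, as for 42.8% of all tested genes, but the difference of 0.12 was not called (adjusted p = 0.390, 95% interval −0.09 to 0.32).

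**Figure D3:**
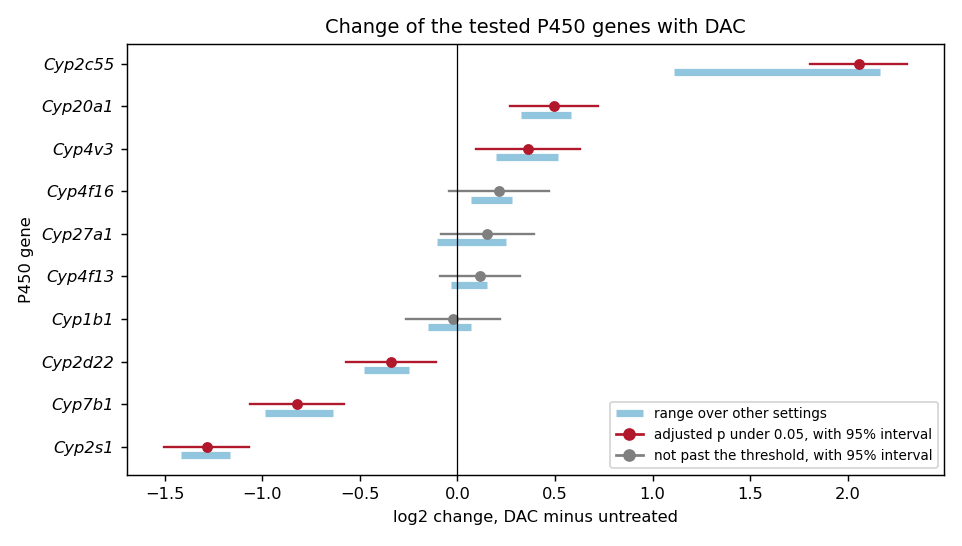
Log2 change, DAC minus untreated (x axis), of the 10 tested P450 genes (y axis), with its 95% interval from limma. The pale bar below each point spans the change over the other settings. The intervals of Cyp2c55, Cyp20a1 and Cyp4v3 lie above 0, those of Cyp2d22, Cyp7b1 and Cyp2s1 below 0, and the other 4 cross 0. Since Cyp2c55 passed the filter through its DAC arrays alone, its place above 0 is no independent support. The pale bar of Cyp2c55 reaches down to 1.11.

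Another 3 genes lay just outside the filter, with a probe detected on 1 or 2 untreated arrays and on no DAC array. Cyp26a1, the hydroxylase that breaks down retinoic acid, had raw intensities of 39.8, 42.7 and 42.2 on DAC arrays and 64.9, 51.0 and 50.5 on untreated arrays. The untreated values were the higher ones throughout, and the detection p of the third untreated array, 0.0107, missed the threshold by little. Where the filter was set at a detection p of 0.05 on 3 arrays, Cyp26a1 was called lower with DAC (log2 change −0.52, adjusted p = 0.00393), as it was with no filter (adjusted p = 0.0366). The first of these filters admitted the gene through its untreated arrays alone, and a change against DAC arrays at background is no bound, so neither call stands as support. Its second probe was at background on all arrays. Cyp39a1, another oxysterol hydroxylase, had raw intensities of 45.2, 44.9 and 46.8 with DAC and 54.8, 50.8 and 52.1 without. Its log2 change of −0.22 was called with no filter (adjusted p = 0.0387) and not at a detection p of 0.05 (adjusted p = 0.114). Cyp2u1, a fatty acid hydroxylase, had 39.5, 44.6 and 49.0 with DAC and 45.3, 44.1 and 54.8 without, and these overlapped.

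**Figure D4:**
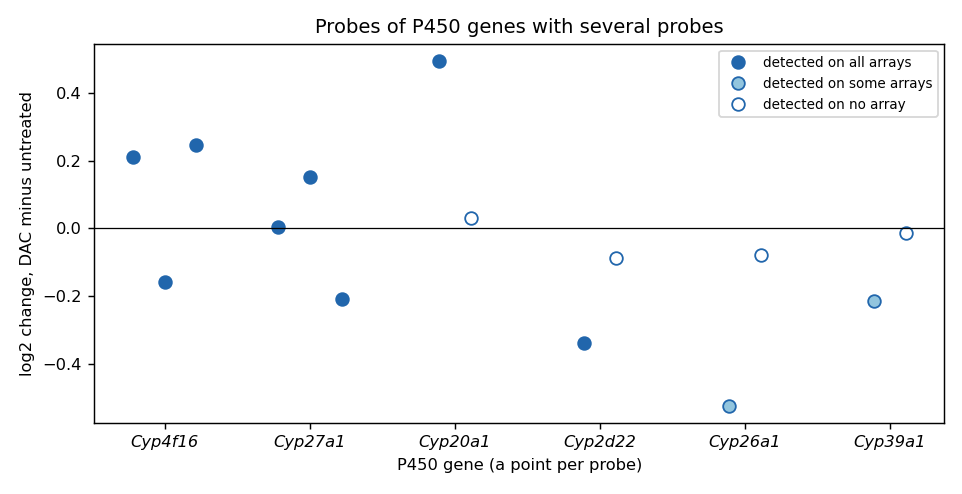
Log2 change, DAC minus untreated (y axis), of each probe of 6 P450 genes with several probes (x axis), filled by how many arrays detected the probe. The detected probes of Cyp4f16 and Cyp27a1 fall on both sides of 0, from −0.16 to 0.25 and from −0.21 to 0.15. In Cyp20a1, Cyp2d22, Cyp26a1 and Cyp39a1 the probe that was detected changed more than the one that was not. A probe at background on all arrays can show little change, so this difference carries no information about the genes. The detected probes of Cyp26a1 and Cyp39a1 were above detection on untreated arrays only.

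The partners and regulators of P450 enzymes were read from 7 lists, of which 63 genes were tested. Of these, 15 were higher and 17 lower with DAC, so that 50.8% were called, beside 29.5% of all genes tested. Of all genes tested, 14.8% were higher and 14.6% lower. The lists were chosen with earlier results of these data known, so the share is not a measure of how often such genes respond. Among electron donors, 1 of 8 tested genes rose and 2 fell, with a median log2 change of −0.01 (0.00 over all genes). Por, the reductase that serves the microsomal P450 enzymes, had log2 intensities of 9.25, 9.23 and 9.08 with DAC and 8.87, 8.84 and 8.91 in untreated plates, 1.24-fold higher without overlap (adjusted p = 0.0259). That call was lost in 5 of 17 alternatives, with an adjusted p from 0.0102 to 0.229. The cytochrome b5 of the mitochondrial outer membrane, Cyb5b, was 1.39-fold lower (adjusted p = 0.00191) and its reductase Cyb5r3 1.32-fold lower, a call lost with 75th percentile scaling (adjusted p = 0.178) and without DAC replicate 1 (0.0656). Cyb5a, the microsomal form, differed by −0.01, Fdxr, the ferredoxin reductase, by −0.11, neither called, and Fdx1 was below detection on every array.

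Of 13 tested genes of haem supply and membrane partners, 3 rose and 2 fell, beside 14.8% and 14.6% of all genes. Their median was −0.04. Alas1, the first and limiting enzyme of haem synthesis outside red cells, was 1.26-fold higher with DAC, with log2 intensities of 10.98, 10.77 and 10.83 against 10.57, 10.44 and 10.57 in untreated plates. The biliverdin reductases Blvrb and Blvra were 1.34-fold and 1.26-fold higher. Of 17 alternatives, Alas1 and Blvrb lost the call in 4 each and Blvra in 6, and without between-array normalization the adjusted p was 0.0566 for Alas1, 0.0582 for Blvrb and 0.129 for Blvra. Hmox1, which breaks haem down, was 2.90-fold lower on average, with DAC plates spread over 7.76, 6.56 and 8.80 against 9.03, 9.33 and 9.37 in untreated plates. Without DAC replicate 2 its log2 change was −0.96, in place of −1.54. Its adjusted p ran from 3.64e-05 to 0.150 over the alternatives, and the call was lost in 2 of 17.

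In the aryl hydrocarbon receptor axis, 5 of 10 genes were detected on no array, among them Ahr itself, its repressor Ahrr and the target gene Tiparp. Of the 5 tested, 1 rose and 3 fell, with a median of −0.31, beside 14.8% higher and 14.6% lower over all genes. Arnt, the partner with which the receptor binds DNA, was at 8.86, 8.50 and 9.07 with DAC and 9.68, 9.59 and 9.51 in untreated plates, 1.73-fold lower (adjusted p = 0.000357). Of the receptor's target genes, Nqo1, a quinone reductase that NRF2 also controls, was 1.81-fold higher (adjusted p = 1.40e-05), and Ugt1a6a, a glucuronosyltransferase, was 1.81-fold lower (adjusted p = 2.50e-05). Of the P450 genes that this receptor induces, Cyp2s1 was lower, Cyp1b1 was not called (log2 change −0.02), and Cyp1a1 and Cyp1a2 were at background.

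Of 10 tested nuclear receptors and related factors, 1 rose and 3 fell (median −0.08), beside 14.8% and 14.6% of all genes tested. Cebpb, a factor of adipose and liver genes, was 1.62-fold, Pparg, the adipogenic receptor, 1.42-fold and Nr2f2 1.31-fold lower with DAC, and Rxra, the partner of many nuclear receptors, was 1.23-fold higher. The call of Rxra was lost in 8 of 17 alternatives and that of Nr2f2 in 4, where the mean of its probes gave a log2 change of −0.12 (adjusted p = 0.447) in place of −0.39. The xenobiotic receptor Nr1i2, the bile acid receptor Nr1h4 and the steroidogenic factor Nr5a1 were below detection on every array.

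Around the retinoic acid hydroxylase Cyp26a1, 3 of 10 tested genes rose and 3 fell, beside 14.8% and 14.6% of all genes. Their median was −0.11. Aldh1a3, which makes retinoic acid, had log2 intensities of 7.24, 7.47 and 7.36 with DAC and 4.94, 4.91 and 4.75 in untreated plates, where 1 of 3 arrays detected it. The fitted change of 2.49 (adjusted p = 1.93e-10, limma) is against untreated plates at the limit of detection and is no bound. Over 16 alternatives the change was 1.60 to 2.57. Its 3 DAC arrays were enough for the filter, so neither the adjusted p nor this range is independent support. The related enzymes Aldh1a2 and Aldh1a1 moved the other way, at 1.87-fold and 1.49-fold lower. Crabp2, which carries retinoic acid to its receptors, was 2.85-fold higher, with log2 intensities of 7.59 to 7.72 over the DAC plates against 5.77 to 6.45 over the untreated plates (adjusted p = 1.46e-06).

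Of 11 tested cholesterol and steroid genes, 2 rose and 3 fell (median −0.13), beside 14.8% and 14.6% of all genes tested. Cyp51 had log2 intensities of 9.41, 9.41 and 9.42 with DAC and 10.38, 10.41 and 10.52 in untreated plates, 2.04-fold lower (adjusted p = 1.45e-06). Ch25h, which makes an oxysterol that Cyp7b1 takes as substrate, was 1.34-fold higher (adjusted p = 0.00875, and 0.0580 without between-array normalization). Hsd11b1, which reactivates glucocorticoids, was 1.56-fold higher and Hsd17b7, of cholesterol and oestrogen synthesis, 1.39-fold lower (adjusted p = 0.0560 without the detection filter). Star, which feeds cholesterol to Cyp11a1, was detected on no array.

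Of 6 tested eicosanoid genes, 4 rose and 1 fell, with a median of 0.55, beside 14.8% higher and 14.6% lower over all genes. Ptgis, the prostacyclin synthase and itself a P450-fold protein without a CYP target name, was at 11.24, 11.28 and 11.40 with DAC and 12.34, 12.32 and 12.22 in untreated plates, 1.98-fold lower (adjusted p = 2.85e-06). Ephx2 and Ephx1, hydrolases of the epoxides that P450 enzymes form from fatty acids and foreign compounds, were 2.46-fold and 1.51-fold higher (adjusted p = 1.59e-06 and 0.000291, limma). Ptges, a prostaglandin E synthase, was 1.61-fold higher. The P450-fold thromboxane synthase Tbxas1 was detected on no array.

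**Figure D5:**
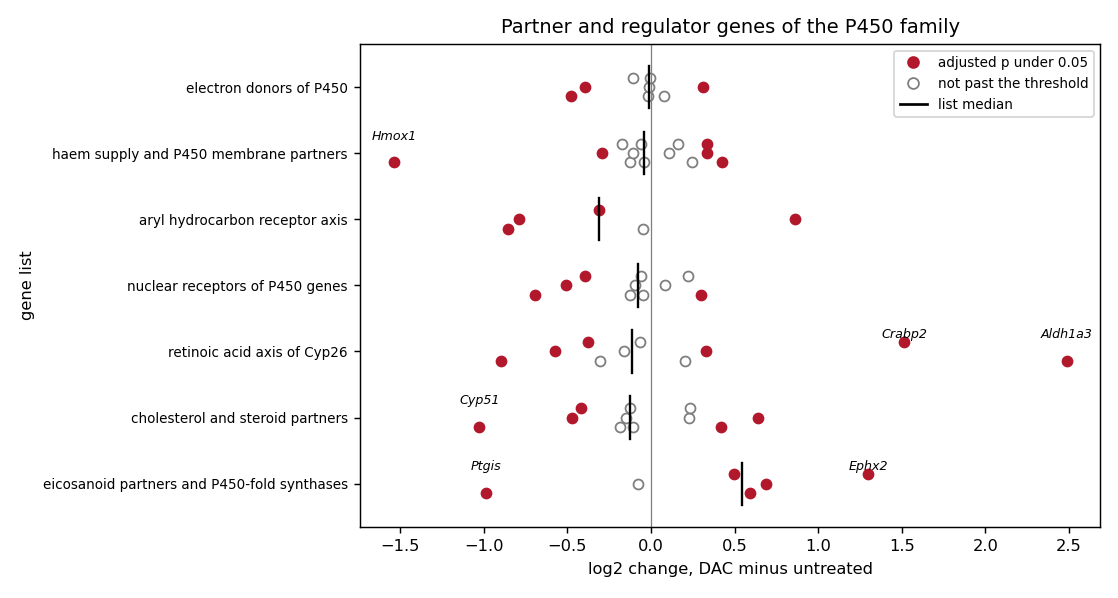
Log2 change, DAC minus untreated (x axis), of the tested genes of 7 lists of P450 partners and regulators (y axis), with a point per gene, filled where the adjusted p was under 0.05, and a black line at each list's median. The medians lie between −0.31 for the aryl hydrocarbon receptor axis and 0.55 for the eicosanoid list.

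The labelled cell type was checked against markers. Of 12 fibroblast markers 10 were tested, while Fap was detected on 1 untreated array and Postn on no array. Of the 10, 2 were called lower with DAC (Lum and Dcn) and 0 higher, beside 14.6% and 14.8% of all genes tested. Of 14 hepatocyte markers, 13 were detected on no array and Fgg on 1 untreated array, and 0 of 6 endothelial markers were detected. Of 14 leukocyte markers 8 were tested, 6 of them higher and none lower with DAC, beside 14.8% and 14.6% of all genes. Of the 6, Cd53 and Csf1r were detected on 3 DAC arrays and 0 untreated arrays, and so could pass the filter only as higher ones. The summed normalized intensity of the 8 tested leukocyte markers was 1501 to 1531 on DAC arrays and 940.2 to 1002 on untreated arrays. This sum includes Cd53 and Csf1r. Ptprc, the pan-leukocyte marker, was detected on no array. The part of these cells in the P450 changes was not tested. The arrays detected 16205 to 16528 probes with DAC and 16254 to 17180 untreated, and the number of plates limits the precision.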

How the data were processed

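RNA of 6 plates was hybridised to Illumina bead arrays. The authors deposited, per the file headers, a mean bead intensity, a detection p-value, a bead standard error and a bead number for each probe. Intensities were judged raw from their values, and scanner software and probe annotation build are not stated by the labels. A further deposited table shared 0 identifiers with this one and was not used. From the intensities, background was corrected by normexp with parameters from the detection p-values, an offset of 16 was added and log2 values were quantile normalized (limma 3.58.1, R 4.3.3). A probe was kept if 3 or more arrays detected it at p below 0.01, and each gene was read from its brightest kept probe. DAC and untreated arrays were compared with lmFit and eBayes, adjusted by Benjamini-Hochberg. The pipeline was tested on simulated data. Gene names and promoter windows come from RefSeq (GRCm38.p6). All tested P450 genes, Cyp51, Por and up to 4 called genes of each list with the smallest p are named; others named were chosen after their values were seen. Members and lists were chosen with earlier results of these data known. Same-numbered plates of the groups correlated at 0.32, 0.28 and −0.03 in their deviations, and the other combinations at −0.40 to 0.16. These values cannot decide whether the numbers mark pairs. The main fit left the plates unpaired, and the counts with the replicate number as a block are given below. Probes of near-identical P450 genes can read each other's transcripts. On the 10 tested P450 probes, the bead standard error was 3.2% to 6.4% of the intensity.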

Additional observations from a re-analysis of the deposited data

How the results depend on the processing

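Over the alternatives, 150 of 169 recomputed log2 changes of the 10 tested P450 genes kept their direction and side of the threshold, 12 lost the call (Cyp2d22, Cyp4v3 and Cyp20a1) and 7 changed sign, all of genes that were not called. Cyp2s1 and Cyp7b1 kept their calls under all 17 settings. Cyp2c55 was called under the 13 planned ones in which it was tested and in the 3 fits added after seeing the data. Its 16 values count among the 150 kept, which is no sign of stability, since its untreated arrays were at background. Of 458 values of 27 partner genes, 413 kept both and 45 lost the call. The 413 include 16 of Aldh1a3, whose 3 DAC arrays were enough for the filter. The sign changes were those of Cyp27a1 without between-array normalization (−0.029), with the mean of its probes (−0.018) and with 1 array left out (−0.11 to 0.25), of Cyp4f13 without between-array normalization (−0.030), and of Cyp1b1 with 75th percentile scaling (0.029) and with 1 array left out (−0.080 to 0.068). The brightest probe was chosen anew under each setting, so a value of Cyp27a1 with 1 array left out can come from another of its probes. Its 3 detected probes gave log2 changes of 0.15, 0.00 and −0.21 in the main processing. The cause of the sign changes was not tested. The number of P450 genes called, 6, was 3 to 5 when 1 array was left out, and the number called higher, 3, was 1 to 3. Without DAC replicate 1, 2 or 3, Cyp2c55 no longer met the filter on arrays above detection. Without between-array normalization 1 P450 gene was called higher. With the replicate number as a block, the counts were 3 higher and 3 lower for P450 genes and 2006 and 1977 for all genes, against 1708 and 1686, and the calls among P450 genes stayed the same. The numbers of P450 genes detected per group moved by less than 1.5 times under every alternative. Probes at background limit what 67 of the genes can show.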

Other observations

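Dim probes of Cyp11b1 and Cyp2c23 were called higher with DAC when no detection filter was applied. Under that setting 4 of the 80 P450 genes were called higher, beside 1526 of all 28711 genes. Cyp11b1, of adrenal steroid synthesis, had raw intensities of 45.6, 45.5 and 46.4 on DAC arrays and 42.7, 38.2 and 39.3 on untreated arrays (log2 change 0.30, adjusted p = 0.0108, limma). Cyp2c23, listed on the array under the name Cyp2c44, had 45.6, 47.7 and 49.6 with DAC and 46.8, 43.2 and 41.3 untreated (log2 change 0.27, adjusted p = 0.0259). Neither probe had a detection p under 0.01 on any array, and these values are near those of undetected probes in general.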
